A study of Arabidopsis thaliana with 9 samples.

Results

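Wild-type Arabidopsis thaliana seedlings treated with doxycycline were compared with untreated seedlings of the mutant mrpl1-1. The comparison took 6 of the 9 libraries of the series, 3 doxycycline-treated wild-type and 3 mrpl1-1. All plants were of the Col-0 ecotype, were 14 days old, and had grown on solid half-strength MS medium before liquid medium was poured over them for 12 h. For the treated wild type that medium held 25 µg/ml doxycycline. For mrpl1-1, and for the 3 wild-type control libraries, it held no drug. Genotype and treatment therefore both differ between the groups, and their parts in a difference cannot be told apart from these 6 libraries alone. The control libraries are given beside many of the results, though not all, to show where untreated wild type lay. PolyA RNA of whole seedlings was sequenced on an Ion Torrent Proton instrument, and the design text of the series speaks of biological replicates, 3 for each condition. Levels are in FPKM, which scales reads by transcript length and by library size. Of 33557 loci in the deposited tables, the 19056 with a mean of at least 1 FPKM over the 6 libraries were tested. The last locus inside this filter had a mean of 1.00017 FPKM and the first outside it 0.999082 FPKM.

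Mitochondria and plastids translate the few proteins of their own genomes on ribosomes of bacterial type. Doxycycline is a tetracycline that blocks such ribosomes, and MRPL1 is taken to be a protein of the large subunit of the mitochondrial ribosome, so both conditions touch organelle protein synthesis by different routes. Disturbed plant mitochondria signal to the nucleus, a process known as retrograde regulation, for which the alternative oxidase gene AOX1A is the usual marker. NAC transcription factors released from the endoplasmic reticulum bind a short element, the mitochondrial dysfunction motif, upstream of many of its targets. The title of the series names impaired mitochondrial translation as its subject. The labels do not say how mrpl1-1 arose, how strong the allele is, or which locus it hits.

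The transcript of the locus taken from background knowledge to be MRPL1 (AT2G42710, chr2:17782308-17785090 in TAIR10.1, plus strand, L1p/L10e ribosomal protein family in RefSeq) was examined first. It stood at 22.7, 22.1 and 22.3 FPKM in the doxycycline libraries and at 20.8, 12.8 and 19.8 FPKM in the mrpl1-1 libraries. Wild-type controls had 20.7, 19.1 and 26.7 FPKM. All 3 mutant values lay below all treated ones. With a log2 difference of 0.34 and an SE of 0.19 the test was not passed (limma, adjusted p = 0.537), so this transcript could not serve to check the genotype.

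Depth, read from the smallest steps between low FPKM values, was between 5.74 and 7.60 M reads on genes in the doxycycline libraries and between 3.64 and 8.19 M in the mrpl1-1 libraries. In those 6 libraries a single read on 1 kb of transcript was worth 0.133 to 0.322 FPKM, which limits the precision of low values. Replicate 2 of mrpl1-1 stood apart. Its total FPKM was 1026050, against 730782 to 808057 in the other 5 libraries compared. Its deviation from the mean of the 6 libraries fell with transcript length (Spearman rho = -0.367 across loci), whereas the 3 doxycycline libraries gave 0.155, 0.222 and 0.280. Across 18874 loci the difference between the groups rose with transcript length (rho = 0.317 across loci, which are not independent replicates). Median transcript length was 1547 nt for the loci called as higher with doxycycline and 1401 nt for those lower, against 1724 nt for all loci tested. A trend of this sign makes shorter loci lower with doxycycline, so these medians do not test its part in the lower calls. Of the calls 69.7% were lower, and 59.3% with the trend removed. Some results are also given without mrpl1-1 replicate 2 or with the length trend removed, but not every call was followed in this way. Of the 76 called loci, 25 kept their call without that library and 68 with the trend removed. SEN1, EXPA18, RHS18 and ABCB4, named below, were among those that lost it in both fits.

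Doxycycline-treated wild type and mrpl1-1 differed at 76 of 19056 loci, or 0.399% (limma, adjusted p under 0.05). At 23 loci, 0.121% of those tested, the level was higher with doxycycline, and at 53, or 0.278%, it was lower. The first set included genes for glutathione transferases, glycosyltransferases and efflux pumps. The second included root hair and cell wall genes on the one hand, and kelch F-box, BTB-TAZ and WRKY genes on the other. The groups of 3 did not overlap at any of the 76 loci, but these were chosen by a test on the same libraries. The share of all loci without overlap is not given, so separation of the groups is stated here and below as a description only. Among loci above 0 in every library the mean FPKM was 2.06 to 13.6 times as high with doxycycline at 20 loci and 1.95 to 8.72 times as high in mrpl1-1 at 49. The median log2 difference over all loci tested was 0.01. An unadjusted p under 0.05 was reached by 2122 loci, 11.1% of those tested.

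Untreated wild type lay on a different side for the different sets. Of the 20 loci higher with doxycycline and not listed at 0 throughout a group, the median of the wild-type controls was nearer to that of mrpl1-1 at 19 and nearer to that of doxycycline at 1. Of the 50 such loci lower with doxycycline it was nearer to mrpl1-1 at 29 and nearer to doxycycline at 21. Tested against the controls in their own deposited tables, 35 of 19073 loci (0.184%) differed with doxycycline and 7 of 18994 (0.0369%) in mrpl1-1. Of the 23 loci higher with doxycycline than in mrpl1-1, 10 also passed against wild type with doxycycline and 0 with mrpl1-1. Of the 53 lower ones, 6 passed with doxycycline and 3 with mrpl1-1. Some loci fell below the filter of a comparison with wild type, were not tested in it and are counted as not passed. They include AT3G54530 and ATCG00230 for mrpl1-1, and AT2G44130 for doxycycline. Those comparisons use the same control libraries and are given side by side only. Control replicate 3 was the shallowest at 3.51 M reads and listed 357 of the tested loci at 0.

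**Figure D1:**
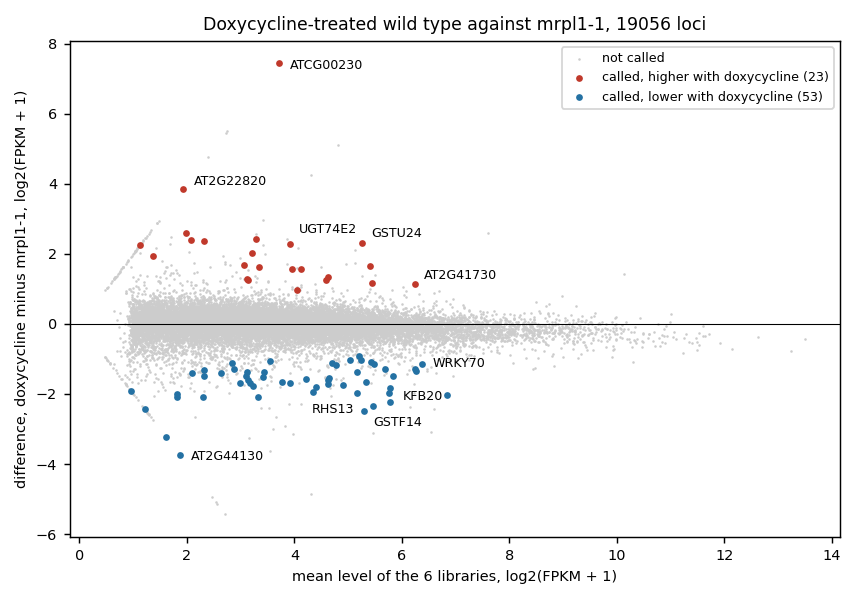
Mean level of the 6 libraries, in log2(FPKM + 1), against the difference between doxycycline-treated wild type and mrpl1-1 on the same scale, for 19056 loci. Red points are the 23 loci called as higher with doxycycline, blue points the 53 called as lower, and grey points were not called. Called loci lie at low and middle levels, and the cloud of uncalled loci is centred near 0.

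The call counts were sensitive to single libraries. They were 21, 22 and 23 without doxycycline replicate 1, 2 or 3. Without mrpl1-1 replicate 1, 2 or 3 they were 13, 30 and 237. Of the 76 loci, 15, 16, 16, 11, 25 and 73 kept their call in these 6 fits, in the same order. With each library's trend on transcript length removed, 91 loci were called, 37 higher and 54 lower.

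Some of the loci higher with doxycycline belong to the removal of foreign or damaging compounds, in which glutathione transferases and glycosyltransferases attach glutathione or a sugar and membrane pumps export the product. Of 28 measured genes listed for glutathione transfer and detoxification, 3 were higher with doxycycline than in mrpl1-1, none was lower and 25 did not pass, where 0.121% of all loci were called as higher. The median log2 difference of the list was 0.60, beside 0.01 for all loci. Called members numbered 1, 2 and 3 without doxycycline replicate 1, 2 and 3, and 2, 3 and 6 without mrpl1-1 replicate 1, 2 and 3. GSTU24 (AT1G17170, chr1:5869543-5870883, plus strand), a tau-class glutathione transferase, had 96.7, 79.7 and 77.8 FPKM with doxycycline and 16.9, 15.5 and 16.0 FPKM in mrpl1-1. Every treated library was thus far above every mutant library, and the controls, at 20.4, 15.5 and 24.9 FPKM, lay with the mutant. The means were 84.7 ± 10.4 and 16.2 ± 0.730 FPKM (SD, n = 3), 5.24-fold apart, with a log2 difference of 2.31 (SE 0.14; limma, adjusted p = 0.00122). GSTU24 kept its call under all 23 alternatives, with adjusted p up to 0.0084.

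Its neighbour GSTU25 (AT1G17180, chr1:5872024-5873124, plus strand), a paralogue of the same class 1140 bases away, showed a graded order. It had 94.0, 83.1 and 53.5 FPKM with doxycycline, 22.2, 25.3 and 21.4 FPKM in mrpl1-1, and 7.46, 7.70 and 13.5 FPKM in the controls. The 3 groups did not overlap with one another. The log2 difference between doxycycline and mrpl1-1 was 1.66 (SE 0.21; limma, adjusted p = 0.029), and the value for mrpl1-1 against wild type, 1.22, did not pass (limma, adjusted p = 0.388). Reads of such near-identical neighbours could be split between them in the authors' quantification, so the individual levels are uncertain. UGT73B4 (AT2G15490), a glucosyltransferase, had 30.1, 25.8 and 31.3 FPKM with the drug, 8.83, 10.2 and 8.63 FPKM in mrpl1-1 and 8.28, 5.69 and 6.56 FPKM in the controls. The log2 difference was 1.56 (SE 0.14; limma, adjusted p = 0.00964), and the call was lost in 1 alternative, without doxycycline replicate 1 (limma, adjusted p = 0.0509).

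Not all detoxification genes followed. The abundant GSTU19 had 430, 416 and 413 FPKM with doxycycline and 272, 397 and 355 FPKM in mrpl1-1, and GSTF2 had 425, 427 and 338 against 347, 511 and 408 FPKM. Neither passed (limma, adjusted p = 0.558 and 0.896), and the groups overlapped for GSTF2. GSTU9 had 25.6, 30.2 and 20.4 FPKM with the drug and 4.11, 8.97 and 9.24 FPKM in the mutant, a log2 difference of 1.70 that missed the threshold (limma, adjusted p = 0.0625). One glutathione transferase went the other way: GSTF14 (AT1G49860, chr1:18458526-18459969, plus strand), of the phi class, had 15.6, 13.1 and 18.5 FPKM with doxycycline and 84.8, 94.0 and 98.3 FPKM in mrpl1-1. Its controls, at 21.6, 34.5 and 48.2 FPKM, lay between the groups. The log2 difference was -2.49 (SE 0.16; limma, adjusted p = 0.00126), and all 23 alternatives called it, with adjusted p up to 0.0107.

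Families defined by RefSeq product names were added after the values were seen. Among 104 measured UDP-glycosyltransferases 3 were higher with doxycycline, among 38 efflux proteins of the MATE family 2, and among 44 ABC transporters 3. None of these families had a member called as lower. Their median differences were 0.05, 0.20 and 0.18, beside 0.01 for all loci. Over the alternatives the higher members numbered 1 to 5, 0 to 3 and 0 to 3. Among 47 measured glutathione transferases 2 were higher and 1 was lower, with a median of 0.08. These shares stand against 0.121% of all loci called as higher and 0.278% called as lower. UGT74E2 (AT1G05680, chr1:1703002-1704838, minus strand), known to glucosylate the auxin precursor indole-3-butyric acid, had 39.8, 30.7 and 27.7 FPKM with doxycycline. In mrpl1-1 it had 4.102, 6.71 and 7.29 FPKM, and in the controls 8.22, 2.37 and 11.7 FPKM. The mutant thus lay within the range of the controls, and the log2 difference of 2.28 (SE 0.22) passed (limma, adjusted p = 0.0129). It was lost with the controls in the fit (limma, adjusted p = 0.0516). UGT85A1 was the exception on the higher side. It had 22.6, 23.8 and 20.1 FPKM with the drug, 9.20, 11.3 and 11.7 FPKM in mrpl1-1 and 22.5, 14.1 and 27.5 FPKM in the controls (limma, adjusted p = 0.0471), so here the controls overlapped the treated libraries.

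Among the pumps, ABCB11 (AT1G02520, P-glycoprotein 11) had 19.1, 16.1 and 15.4 FPKM with doxycycline, 6.26, 4.01 and 4.36 FPKM in mrpl1-1 and 2.64, 2.59 and 1.88 FPKM in the controls. All mutant values lay above all controls and below all treated values. The log2 difference between doxycycline and mrpl1-1 was 1.62 (SE 0.19; limma, adjusted p = 0.0221), and the call was lost with no filter, without each doxycycline library in turn and without mrpl1-1 replicate 2 (limma, adjusted p up to 0.0963). ABCB4, a transporter of auxin, had 38.7, 31.5 and 37.8 FPKM with the drug and 18.8, 12.5 and 13.0 FPKM in mrpl1-1 (log2 difference 1.25; limma, adjusted p = 0.0401). ABCA7 had 15.04, 12.2 and 10.5 FPKM with the drug and 4.76, 3.73 and 5.29 FPKM in the mutant (log2 difference 1.28; limma, adjusted p = 0.0433). Control levels of ABCB4 were 10.9, 11.2 and 13.5 FPKM, and those of ABCA7 were 3.43, 3.23 and 4.23 FPKM, so both mutant levels were close to them.

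The retrograde genes overlapped in part with the pumps and conjugating enzymes. Of 27 measured genes listed for the mitochondrial retrograde response, 6 were higher with doxycycline than in mrpl1-1, none was lower and 21 did not pass, against 0.121% of all loci called as higher. The differences of 25 were above 0, and the list median was 0.71. It stayed between 0.64 and 0.85 over the 23 alternatives. Against wild type the list medians were 1.32 with doxycycline and 0.50 in mrpl1-1, from fits that use the same control libraries. The 6 called members were UGT74E2, CYP81D8, AT2G04070, AT2G04050, ABCB4 and AT2G41730. The list had 1 called member without doxycycline replicate 1, 2 or 3 or without mrpl1-1 replicate 1, and 2 and 6 members were called without mrpl1-1 replicates 2 and 3.

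AT2G04050 (chr2:1337180-1339468, minus strand), a MATE efflux protein, had 24.3, 21.6 and 18.6 FPKM with doxycycline, 4.83, 1.35 and 4.40 FPKM in mrpl1-1 and 2.37, 0.483 and 1.57 FPKM in the controls. The log2 difference was 2.42 (SE 0.33; limma, adjusted p = 0.0314). Its near copy AT2G04070 had 5.61, 3.79 and 3.11 FPKM with the drug and no more than 0.389 FPKM in any mutant library (limma, adjusted p = 0.0305), and another member of this cluster, DTX1 (AT2G04040), missed the threshold at 15.9, 10.7 and 10.2 against 4.23, 5.08 and 3.87 FPKM (limma, adjusted p = 0.0543). CYP81D8, a cytochrome P450, had 32.5, 22.1 and 22.9 FPKM with the drug and 7.02, 7.94 and 9.21 FPKM in mrpl1-1, where the controls ranged from 4.27 to 13.0 FPKM (limma, adjusted p = 0.0246). AT2G41730, which RefSeq names a calcium-binding site protein, had 126, 107 and 101 FPKM with doxycycline, 52.3, 59.2 and 40.7 FPKM in mrpl1-1, and 20.5, 13.6 and 43.3 FPKM in the controls. Mutant and control libraries overlapped. Its log2 difference between doxycycline and mrpl1-1 was 1.13 (SE 0.17; limma, adjusted p = 0.0472).

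The markers of the respiratory bypass were less far apart. AOX1A (AT3G22370, chr3:7906521-7908746, plus strand) had 79.3, 59.1 and 71.4 FPKM with doxycycline, 43.2, 41.6 and 41.2 FPKM in mrpl1-1 and 24.01, 22.1 and 43.5 FPKM in the controls. All treated libraries lay above all mutant libraries. At a log2 difference of 0.71 and an SE of 0.14 the threshold was missed (limma, adjusted p = 0.0994). The NADH dehydrogenase gene NDB2 had 18.7, 20.7 and 19.9 against 13.8, 14.8 and 11.5 FPKM (limma, adjusted p = 0.21), and the controls had 9.28, 8.76 and 8.87 FPKM. For AT5G09570 and NDB4 the groups were nearly level although both were above the controls. AT5G09570, a small protein of the Cox19-like CHCH family, had 22.04, 25.4 and 10.9 FPKM with doxycycline and 18.1, 29.5 and 11.6 FPKM in mrpl1-1, against 1.69, 1.81 and 1.12 FPKM in the controls. The log2 difference between the groups was -0.01 (limma, adjusted p = 0.998). NDB4 had 1.502, 1.01 and 1.96 FPKM with the drug and 2.18, 1.49 and 0.891 FPKM in the mutant (limma, adjusted p = 0.999), and was listed at 0.0646, 0 and 0 FPKM in the controls. The regulator NAC017 had 20.1, 24.1 and 20.7 against 20.9, 22.6 and 20.7 FPKM (limma, adjusted p = 0.979).

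**Figure D2:**
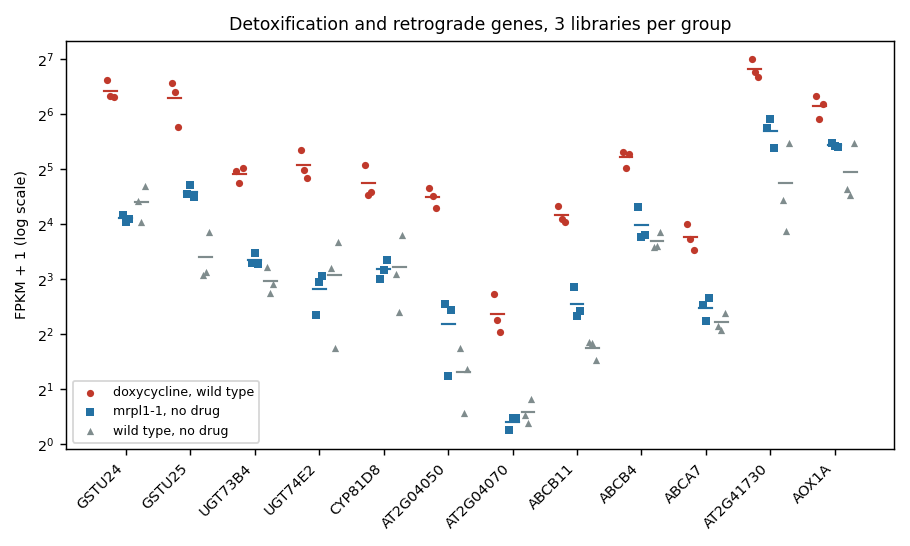
FPKM + 1 (log scale) of 12 detoxification and retrograde genes in each library: doxycycline-treated wild type in red circles, mrpl1-1 in blue squares, untreated wild type in grey triangles, with a bar at the group mean. Red points lie above all blue points of the same gene throughout, and for GSTU25, UGT73B4 and ABCB11 the blue points also lie above the grey ones.

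Sequence upstream of the called genes was taken from the RefSeq genome TAIR10.1, 250 bases before each annotated start. The mitochondrial dysfunction motif was searched as CTTGNNNNNCAAG or CTTGNNNNNCACG on both strands. It was found before 153 of 18873 tested nuclear loci, or 0.811%, before 5 of the 22 nuclear loci called as higher with doxycycline (22.7%) and before 0 of the 53 called as lower. Of the 27 retrograde genes 8 held it (29.6%). That motif was described in such genes, so their share is not independent of the list, and the searches were chosen with the results known. The motif TGACG, bound by TGA factors, was before 19.4% of all loci, 22.7% of those called as higher, 15.1% of those called as lower and 53.6% of the 28 detoxification genes. The 5 called carriers are shown because they hold the motif at a level of expression that differed between the groups. Each is written 5′ to 3′ on the strand of its gene, with the motif in capitals, and a match on the opposite strand appears as its reverse complement. The positions are chr2:1339592-1339703 (minus strand) for AT2G04050, chr2:16223898-16223957 (plus strand) for AT2G38823, chr4:7494311-7494435 (minus strand) for AT4G12735, chr1:523429-523488 (plus strand) for ABCB11 and chr4:17571844-17571903 (minus strand) for CYP81D8.
AT2G04050: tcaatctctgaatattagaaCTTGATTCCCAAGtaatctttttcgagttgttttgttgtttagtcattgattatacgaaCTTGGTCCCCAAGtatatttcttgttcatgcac
AT2G38823: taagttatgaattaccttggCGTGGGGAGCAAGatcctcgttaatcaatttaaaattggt
AT4G12735: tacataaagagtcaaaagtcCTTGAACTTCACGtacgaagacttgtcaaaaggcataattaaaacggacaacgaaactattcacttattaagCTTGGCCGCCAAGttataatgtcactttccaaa
ABCB11: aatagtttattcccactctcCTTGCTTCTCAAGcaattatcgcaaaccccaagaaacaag
CYP81D8: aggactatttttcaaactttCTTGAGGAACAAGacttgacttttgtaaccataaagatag
AT2G04050 and AT4G12735 each carried 2 matches. A match of AT4G12735 overlapped 1 of the other motifs searched, and the rest overlapped none. AT2G38823 and AT4G12735 have no established function. AT2G38823 had 14.5, 7.23 and 10.3 FPKM with doxycycline and 2.05, 0.837 and 0.836 FPKM in mrpl1-1 (limma, adjusted p = 0.029). AT4G12735 had 14.1, 16.2 and 11.9 FPKM against 2.55, 4.06 and 4.52 FPKM (limma, adjusted p = 0.029). The controls were at or below 0.631 FPKM for the former and at or below 3.28 FPKM for the latter. A match describes the letters in this window and is not evidence of binding.

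Other loci higher with doxycycline stood outside these functions. BHLH39 (AT3G56980), a transcription factor of the iron deficiency response, had 7.16, 6.45 and 13.8 FPKM with doxycycline and 1.26, 0.574 and 0.172 FPKM in mrpl1-1, a log2 difference of 2.58 (SE 0.34; limma, adjusted p = 0.0304). The controls were wide apart, at 20.3, 1.62 and 0.859 FPKM, and the call was lost in all but 13 of the 22 alternatives that tested the gene. It was the only 1 of 13 measured iron genes to pass, beside 0.121% of all loci called as higher. IRT1, the root iron transporter, had 2.98, 0.640 and 3.76 against 0.459, 2.51 and 0.563 FPKM (limma, adjusted p = 0.631). PDF1.2 (AT5G44420), a defensin used as a marker of jasmonate and ethylene signalling, had 15.3, 21.2 and 16.7 FPKM with the drug, 3.42, 5.45 and 2.33 FPKM in mrpl1-1 and 16.7, 2.51 and 6.99 FPKM in the controls (log2 difference 2.03, SE 0.26; limma, adjusted p = 0.029). It was the only called member among 24 jasmonate genes, whose median difference was -0.05, where 0.121% of all loci were called as higher. AT3G54530, which has no described function, had 7.76, 11.5 and 7.30 FPKM with doxycycline, 0.618, 1.26 and 0.707 FPKM in mrpl1-1, and was listed at 0 in all controls (limma, adjusted p = 0.0131).

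Loci listed at 0 in all libraries of 1 group are given by their values, with no fold, since an estimate of 0 can be a failed one. The plastid-encoded ATCG00230 had 124, 257 and 161 FPKM with doxycycline and was listed at 0 in all mrpl1-1 and control libraries (limma, adjusted p = 2.61e-05). It was the only called locus among 96 plastid-encoded ones, beside 0.399% of all loci called. Of the 96, 69 had a difference below 0, beside 9330 of all 19056 loci. The plastid median was -0.40. At an unadjusted p under 0.05 there were 18 lower and 3 higher, beside 1297 lower and 825 higher among all 19056 loci. Without mrpl1-1 replicate 2 the plastid median was -0.13. Without mrpl1-1 replicate 3 it was -0.55 with 7 plastid loci called as lower, in a fit that called 192 of 19011 loci as lower. Without any 1 doxycycline library, or without mrpl1-1 replicate 2, 1 plastid locus was called as lower. AT2G22820 had 24.9, 6.37 and 15.01 FPKM and AT5G11425 had 3.42, 3.55 and 4.46 FPKM with the drug, both at 0 in mrpl1-1 and each above 0 in 1 control library. In the other direction, AT2G35743 had 12.8, 8.71 and 5.22 FPKM in mrpl1-1 and AT5G46871 had 5.20, 7.08 and 2.12 FPKM, both at 0 with doxycycline (limma, adjusted p = 0.0111 and 0.0442). Of the 20 loci whose difference exceeded 3 on the log2 scale, 16 were not called, and all 16 were listed at 0 in at least 1 library.

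Root hair genes formed a large group among those lower with doxycycline. Root hairs are the tip-growing outgrowths of root epidermal cells, and their walls are built by extensins, proline-rich proteins, expansins, peroxidases and xyloglucan-modifying enzymes. Of 27 measured root hair genes 11 were lower with doxycycline than in mrpl1-1, none was higher and 16 did not pass, beside 0.278% of all loci called as lower. The difference was below 0 for all 27, with a median of -1.44. Over the alternatives the median lay between -1.64 and -0.92. Against wild type the medians were -1.10 with doxycycline and 0.27 in mrpl1-1. The number of called members was 1, 2 and 2 without doxycycline replicate 1, 2 and 3, and 1, 5 and 15 without mrpl1-1 replicate 1, 2 and 3. With the length trend removed it was 9.

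RHS13 (AT4G02270, chr4:992111-993039, minus strand), a wall protein named for its root hair specific expression, had 16.8, 20.9 and 18.5 FPKM with doxycycline, 96.3, 157 and 62.0 FPKM in mrpl1-1 and 57.1, 61.4 and 66.1 FPKM in the controls. The treated libraries were low and close together, and the mutant libraries were high and scattered, with replicate 2 highest. The means were 18.7 ± 2.05 and 105 ± 48.1 FPKM (SD, n = 3), a log2 difference of -2.33 (SE 0.30; limma, adjusted p = 0.029). The call was lost with no filter, without the variance trend, without each doxycycline library in turn and without mrpl1-1 replicate 1 (limma, adjusted p up to 0.116). PRP3 (AT3G62680, chr3:23182722-23184042, plus strand), a proline-rich wall protein, had 13.7, 17.9 and 19.98 FPKM with the drug, 66.2, 92.3 and 56.9 FPKM in mrpl1-1 and 58.6, 54.9 and 35.2 FPKM in the controls (log2 difference -1.99, SE 0.21; limma, adjusted p = 0.0162). LRX1 (AT1G12040), a leucine-rich repeat extensin required for root hair shape, had 3.88, 5.20 and 3.45 FPKM against 16.3, 10.9 and 13.4 FPKM in mrpl1-1 (log2 difference -1.49; limma, adjusted p = 0.0305). The peroxidase AT4G26010 had 16.7, 14.2 and 15.3 FPKM with the drug and 56.6, 59.1 and 45.2 FPKM in the mutant (log2 difference -1.73, SE 0.15; limma, adjusted p = 0.00673), and all 23 alternatives called it.

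XTH12 and XTH13, neighbouring xyloglucan endotransglucosylases 1097 bases apart that may share reads, had 0.483 to 2.02 FPKM with the drug and 4.96 to 11.1 FPKM in mrpl1-1 (limma, adjusted p = 0.0305 and 0.0227). The other called members were the peroxidases RHS18 and RHS19, the pectin methylesterase RHS12, the expansin EXPA18 and MOP10, a protein of the Ole e 1 family. RHS19 had 9.87, 10.4 and 7.92 against 37.2, 58.9 and 26.9 FPKM (limma, adjusted p = 0.0305). EXPA18 had 9.21, 7.05 and 6.11 against 37.4, 25.3 and 18.5 FPKM (limma, adjusted p = 0.0471). G3Pp2 (AT4G25220), which RefSeq names root hair specific 15, was outside the list. It had 0.859, 0.972 and 0.510 FPKM with the drug and 6.45, 6.78 and 5.06 FPKM in the mutant (limma, adjusted p = 0.0177). Its controls, at 2.15, 3.07 and 2.14 FPKM, lay between the groups.

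The regulators and the growth machinery of root hairs gave smaller differences, none of which passed. RSL4, a basic helix-loop-helix factor that drives hair growth, had 0.785, 0.408 and 1.03 FPKM with the drug and 2.92, 0.797 and 1.31 FPKM in the mutant (limma, adjusted p = 0.583). RHD6, which acts upstream of it, had 2.62, 2.83 and 1.85 against 6.54, 4.46 and 3.78 FPKM (limma, adjusted p = 0.279). RHD2, the NADPH oxidase of the hair tip, had 5.61, 5.53 and 8.02 against 8.27, 6.63 and 6.38 FPKM (limma, adjusted p = 0.794), and CSLD3, a cellulose synthase-like enzyme, had 10.11, 12.3 and 10.2 against 13.3, 8.83 and 11.05 FPKM (limma, adjusted p = 0.989). The groups overlapped for RHD2 and CSLD3. The difference between these genes and the called ones was not tested.

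**Figure D3:**
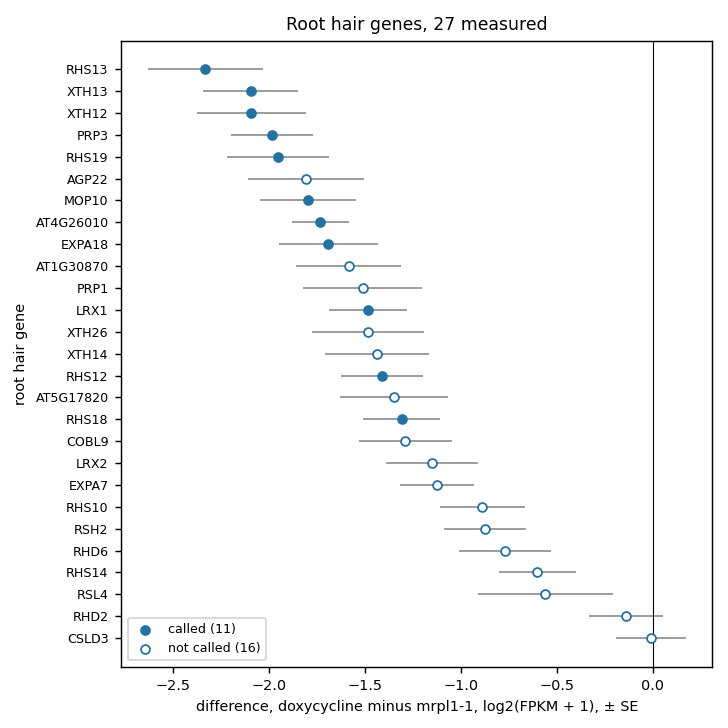
Difference between doxycycline-treated wild type and mrpl1-1, in log2(FPKM + 1) with its standard error, for the 27 measured root hair genes, ordered by size. Filled points are the 11 called genes and open points the 16 that did not pass. All lie below 0, from -2.33 for RHS13 to -0.01 for CSLD3.

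The root hair element, a sequence named for its place upstream of root hair genes, was searched in the same 250 bases on both strands. It was before 133 of the 18873 loci, or 0.705%, before 7 of the 53 called as lower (13.2%) and before 1 of the 22 called as higher (4.55%). Of the 27 root hair genes 7 held it (25.9%), a share that is not independent of how the element was described. Matches of 5 called root hair genes are shown, in the same layout, because they lie before genes on which the comparison turns. The positions are chr4:993210-993269 (minus strand) for RHS13, chr3:23182535-23182594 (plus strand) for PRP3, chr1:4069879-4069938 (plus strand) for LRX1, chr1:23331503-23331562 (plus strand) for EXPA18 and chr5:7426198-7426257 (plus strand) for RHS18.
RHS13: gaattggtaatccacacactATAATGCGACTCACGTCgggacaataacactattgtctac
PRP3: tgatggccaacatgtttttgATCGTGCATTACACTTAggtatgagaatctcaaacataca
LRX1: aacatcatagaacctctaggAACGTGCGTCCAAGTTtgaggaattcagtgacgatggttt
EXPA18: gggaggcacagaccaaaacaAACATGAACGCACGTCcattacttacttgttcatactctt
RHS18: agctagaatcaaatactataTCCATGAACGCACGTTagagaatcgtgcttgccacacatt
The match of EXPA18 began 40 bases before the annotated start and that of RHS13 began 210 bases before it. None of these 5 matches overlapped another motif searched. Among the 5 genes shown the log2 difference ranged from -2.33 for RHS13 to -1.31 for RHS18. Of the other called loci with a match, G3Pp2 was at -1.996, AT4G32870 at -1.07 and AT4G12735, higher with doxycycline, at 1.69. XTH13, with no match in this window, was at -2.10.

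In bulk seedlings, fewer root hair cells and less RNA per cell cannot be told apart. The 7 root hair markers summed to 50.01 to 59.9 FPKM with doxycycline, 167 to 306 FPKM in mrpl1-1 and 142 to 161 FPKM in the controls, and all 7 were detected. The endodermis markers, 5 of 6 above the filter, summed to 36.3 to 44.9 FPKM with the drug and 45.3 to 62.1 FPKM in mrpl1-1. Xylem markers, 5 of 6, summed to 53.2 to 61.7 and 65.2 to 77.3 FPKM, and the 3 phloem markers to 91.6 to 94.2 and 96.9 to 117 FPKM. The 7 markers of the guard cell line overlapped, at 38.1 to 43.7 and 36.1 to 43.2 FPKM, as did the 5 of mesophyll, at 19156 to 20725 and 18472 to 39069 FPKM. Thus every endodermis, xylem and phloem sum was lower with the drug than in mrpl1-1, by less than the root hair sum. The control sums of these 3 tissues, at 37.4 to 57.5, 61.0 to 72.6 and 87.7 to 98.1 FPKM, overlapped both groups. Of 14 genes listed for root tissue 2 were lower, BGLU21 and its neighbour BGLU22, root beta-glucosidases that may share reads, beside 0.278% of all loci. None of the 14 was called with no filter, without the variance trend, without any 1 doxycycline library or without mrpl1-1 replicate 1 or 2, and 2 were called without mrpl1-1 replicate 3. BGLU21 had 26.1, 30.6 and 27.4 FPKM with the drug, 105, 147 and 68.6 FPKM in mrpl1-1 and 73.4, 78.1 and 86.1 FPKM in the controls (limma, adjusted p = 0.0315). The part of tissue proportions in the root hair result was not tested.

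The same direction was seen in wall protein families, which were chosen after the values were seen and hold several of the root hair genes. Of 124 measured extensin and proline-rich wall proteins 10 were lower with doxycycline and none was higher, and of 53 class III peroxidases 6 were lower and none higher, where 0.278% of all loci were called as lower. The medians were -0.17 and -0.43. Without doxycycline replicate 1, 2 or 3 the lower wall proteins numbered 1, 2 and 4 and the lower peroxidases 1, 2 and 1. Without mrpl1-1 replicate 1, 2 or 3 they numbered 1, 4 and 11 and 1, 3 and 9. EXT6 (AT2G24980) had 3.76, 4.24 and 4.27 FPKM with the drug, 17.35, 16.3 and 15.1 FPKM in mrpl1-1 and 15.1, 16.3 and 5.41 FPKM in the controls (log2 difference -1.76, SE 0.15; limma, adjusted p = 0.00637). Control replicate 3 was low for EXT6 and also for HRGP1, which had 42.2, 50.3 and 17.84 FPKM in the controls. AT5G04960, an enzyme of the pectin methylesterase and inhibitor superfamily, had 4.05, 3.84 and 3.74 FPKM with doxycycline and 19.96, 23.61 and 15.9 FPKM in mrpl1-1 (log2 difference -2.08, SE 0.17; limma, adjusted p = 0.00637), and was called in all 23 alternatives. AGP3, an arabinogalactan protein, had 11.7, 14.7 and 11.6 against 49.4, 48.2 and 35.5 FPKM (limma, adjusted p = 0.0131).

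A further set lower with doxycycline had control medians nearer to the treated libraries than to mrpl1-1. Tested in the mutant against wild type, AT2G44130 and SEN1 passed. KFB20, AT1G23390, AT3G15450, AT3G15630, BT1, BT5, ERF6, WRKY53 and WRKY70 did not (limma, adjusted p from 0.0948 to 0.931), so for these a difference of the mutant from wild type was not established. The set included kelch F-box genes, whose proteins mark enzymes of phenylpropanoid synthesis for breakdown. Of 4 listed for the turnover of phenylalanine ammonia-lyase 2 were lower with doxycycline, beside 0.278% of all loci. KFB20 (AT1G80440, chr1:30241452-30243176, plus strand) had 36.5, 22.4 and 18.0 FPKM with doxycycline, 112, 161 and 91.2 FPKM in mrpl1-1 and 26.5, 25.3 and 50.6 FPKM in the controls. The mean of the mutant was 4.73 times that of the treated wild type (log2 difference -2.22, SE 0.29; limma, adjusted p = 0.029). AT2G44130 was listed at 0 in all treated and control libraries and had 9.79, 20.3 and 9.41 FPKM in mrpl1-1 (limma, adjusted p = 0.00637), and it also passed against wild type in the mutant (limma, adjusted p = 0.00761). All 22 alternatives that tested it called it. AT1G23390, a kelch F-box protein known to target chalcone synthase, had 39.1, 24.03 and 19.96 FPKM with the drug, 91.3, 135 and 98.6 FPKM in mrpl1-1 and 35.6, 29.2 and 41.7 FPKM in the controls (log2 difference -1.96, SE 0.26; limma, adjusted p = 0.0298). The call of KFB20 was lost with no filter, without the variance trend, without doxycycline replicate 2 or 3 and without mrpl1-1 replicate 1 or 2 (limma, adjusted p up to 0.111). The list of 4 had 1 or 2 called members when any 1 library was left out.

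The genes of phenylpropanoid and flavonoid synthesis were measured at 27 loci, and none was called, beside 0.399% of all loci. Of their differences 20 were above 0 and 7 below, from -1.13 to 1.23 with a median of 0.27. PAL1, a phenylalanine ammonia-lyase, had 173, 133 and 171 FPKM with doxycycline and 93.7, 85.7 and 109 FPKM in mrpl1-1 (limma, adjusted p = 0.14), and the chalcone synthase gene CHS had 747, 518 and 761 against 274, 519 and 388 FPKM (limma, adjusted p = 0.33). TT7, a flavonoid hydroxylase, came nearest, with 25.5, 17.2 and 20.6 against 6.28, 9.47 and 9.59 FPKM and controls at 4.05 to 7.07 FPKM (log2 difference 1.23, SE 0.21; limma, adjusted p = 0.0634). Its regulator MYB12 had 15.3, 10.6 and 15.9 against 4.0995, 6.33 and 6.08 FPKM (limma, adjusted p = 0.0705). For PAL1, TT7 and MYB12 the groups did not overlap.

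Of 26 measured genes of darkness and sugar starvation SEN1 was the only one called, beside 0.278% of all loci called as lower. The list median was -0.22. SEN1 (AT4G35770, chr4:16944878-16946266, plus strand), a marker of dark-induced senescence, had 7.59, 4.79 and 3.90 FPKM with doxycycline, 18.9, 15.6 and 16.7 FPKM in mrpl1-1 and 1.74, 3.39 and 3.59 FPKM in the controls. The log2 difference between the treated and mutant groups was -1.53 (SE 0.22; limma, adjusted p = 0.0384), and the mutant was also above wild type (limma, adjusted p = 0.0289). AT3G15450 (chr3:5212984-5214124, plus strand), an aluminium-induced protein with YGL and LRDR motifs, had 71.8, 70.6 and 34.4 FPKM with the drug, 196, 262 and 240 FPKM in mrpl1-1 and 51.1, 70.4 and 88.3 FPKM in the controls (log2 difference -2.03, SE 0.28; limma, adjusted p = 0.0316). AT3G15630 had 56.1, 50.7 and 37.5 against 113, 120 and 115 FPKM, with controls at 59.4 to 69.4 FPKM (limma, adjusted p = 0.0304). BT1 and BT5, scaffold proteins with BTB and TAZ domains, were 2.49 and 3.03 times as high in the mutant as with doxycycline (limma, adjusted p = 0.0304 and 0.0305). BT1 had 33.7, 35.7 and 27.5 FPKM with the drug, 67.9, 95.5 and 78.0 FPKM in mrpl1-1 and 32.4, 36.4 and 41.4 FPKM in the controls. The amino acid enzyme gene ASN1, often used as a sugar starvation marker, had 4.88, 5.76 and 4.49 against 8.75, 6.61 and 7.52 FPKM and did not pass (limma, adjusted p = 0.332).

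Some transcription factors of stress and defence were lower with doxycycline. Of 21 rapid stress factors, induced within minutes of wounding or touch, 2 were lower, beside 0.278% of all loci, none was higher, and the median difference was -0.88 (from -1.04 to -0.53 over the alternatives). The list median against wild type was 0.01 with doxycycline and 0.75 in mrpl1-1. None of the 21 was called without doxycycline replicate 1, 2 or 3 or without mrpl1-1 replicate 1, and 1 and 5 were called without mrpl1-1 replicates 2 and 3. WRKY53 had 3.71, 3.80 and 3.599 FPKM with the drug, 9.66, 11.5 and 10.4 FPKM in mrpl1-1 and 5.29, 4.25 and 14.3 FPKM in the controls (log2 difference -1.29, SE 0.15; limma, adjusted p = 0.024). ERF6, an ethylene response factor, had 5.595, 2.83 and 4.12 FPKM with the drug, 15.7, 16.6 and 11.4 FPKM in mrpl1-1 and 6.42, 2.12 and 4.25 FPKM in the controls (limma, adjusted p = 0.0433). ZAT10, a zinc finger repressor, was scattered in the mutant at 132, 82.6 and 40.0 FPKM, against 29.1, 23.3 and 17.9 FPKM with the drug, and did not pass (limma, adjusted p = 0.139).

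Of 21 measured genes of salicylate signalling and pathogen defence 1 was lower, WRKY70, beside 0.278% of all loci. The list median was -0.38. WRKY70 (AT3G56400, chr3:20908711-20910623, minus strand), a factor at the balance of salicylate and jasmonate responses, was tight within each group: 55.0, 56.3 and 53.5 FPKM with doxycycline, 132, 117 and 116 FPKM in mrpl1-1, and 50.1, 42.1 and 55.1 FPKM in the controls. The means were 54.9 ± 1.42 and 122 ± 9.12 FPKM (SD, n = 3), a log2 difference of -1.13 (SE 0.13; limma, adjusted p = 0.0177), lost without each doxycycline library in turn or mrpl1-1 replicate 1 (limma, adjusted p up to 0.104). SIB1 and NIMIN1, which act with defence regulators, had lower values with the drug that did not pass (limma, adjusted p = 0.0687 and 0.0765). The defence marker PR1 overlapped, with 19.7, 9.43 and 8.48 against 19.3, 11.9 and 24.7 FPKM (limma, adjusted p = 0.571). COR15B, a cold-regulated protein of the plastid, had 43.1, 45.8 and 54.2 against 114, 150 and 106 FPKM (limma, adjusted p = 0.029). Its controls, at 60.5 to 134 FPKM, reached into the mutant range. It was the only called member of 23 cold and dehydration genes, beside 0.278% of all loci called as lower. The median of that list was -0.32, with 17 differences below 0 and 6 above.

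**Figure D4:**
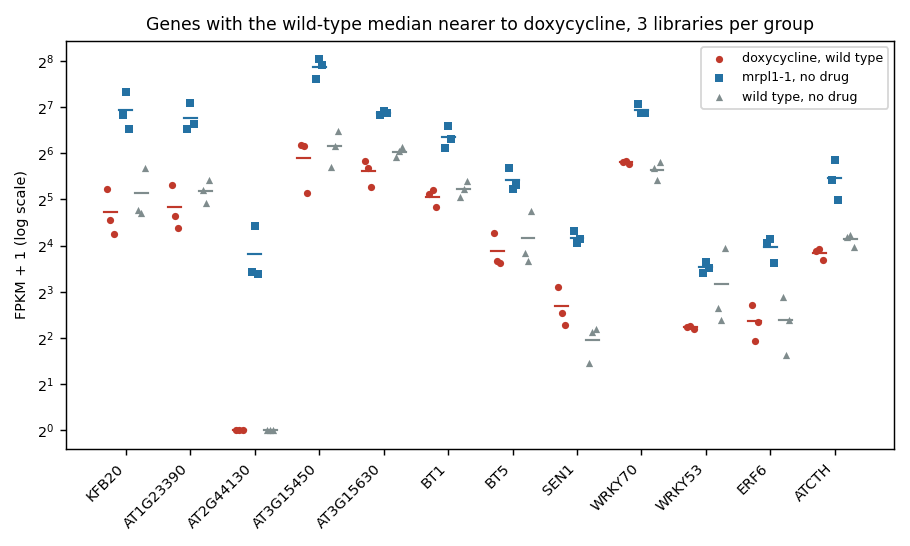
FPKM + 1 (log scale) in each library of 12 genes called as lower with doxycycline whose wild-type median lay nearer to the treated libraries: doxycycline-treated wild type in red circles, mrpl1-1 in blue squares, untreated wild type in grey triangles, with a bar at the group mean. The blue points lie above all red points of the same gene. WRKY53 has 1 grey point, at 14.3 FPKM, above the blue ones.

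Few loci of the organelles or of their machinery were called. With 0.399% of all loci called, lists of this size would hold few or no calls in any case. Of 33 measured mitochondrion-encoded loci none was called, though 28 differences were below 0 and 5 above. At an unadjusted p under 0.05, 1297 of all 19056 loci were lower with doxycycline and 825 higher. Among the 33 mitochondrion-encoded loci there were 7 lower and 1 higher. Their median difference was -0.56, and -0.15 without mrpl1-1 replicate 2, the library whose organelle loci took 3.38% of its FPKM against 1.79% to 2.41% in the other 5 libraries compared. RNA was selected by polyA, so organelle transcripts were sampled in part only. ATMG00090, with the smallest p of these loci, had 2.96, 3.67 and 3.22 FPKM with the drug and 7.35, 9.15 and 5.41 FPKM in mrpl1-1 (limma, adjusted p = 0.131). Nuclear genes for the respiratory chain had a median of -0.09 over 27 members, none called, and genes for mitochondrial chaperones and proteases 0.09 over 24, none called. The chaperone gene CLPB4 had 11.1, 8.51 and 11.02 against 6.88, 5.30 and 6.32 FPKM (log2 difference 0.64; limma, adjusted p = 0.208).

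None of 48 nuclear photosynthesis genes was called, beside 0.399% of all loci. Of their differences 43 were below 0, with a median of -0.36. That median was -0.18 without mrpl1-1 replicate 2 and -0.05 after quantile normalization. LHCB1.4, an antenna protein, had 285, 367 and 260 FPKM with doxycycline and 855, 983 and 389 FPKM in mrpl1-1, where replicate 3 was the low one (limma, adjusted p = 0.24). Plastid ribosomal protein genes had a median of -0.13 over 31 members and plastid chaperone genes 0.24 over 10, with none called in either. No member was called in the lists for cytosolic heat shock, guard cells, vascular tissue, the circadian clock or glucosinolates. The same held for sulfate assimilation, auxin, reactive oxygen enzymes, the cell cycle and chlorophyll synthesis. For glucosinolates 24 of 27 differences were nevertheless below 0 and 3 above. At an unadjusted p under 0.05 (limma) 12 of them were lower and 0 higher, beside 1297 lower and 825 higher among all 19056 loci. Among 27 glucosinolate genes, the isopropylmalate dehydrogenase IMD1 came nearest, at 74.8, 81.4 and 108 FPKM with the drug, 157, 159 and 154 FPKM in mrpl1-1 and 126 to 147 FPKM in the controls (log2 difference -0.84, SE 0.16; limma, adjusted p = 0.0887).

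**Figure D5:**
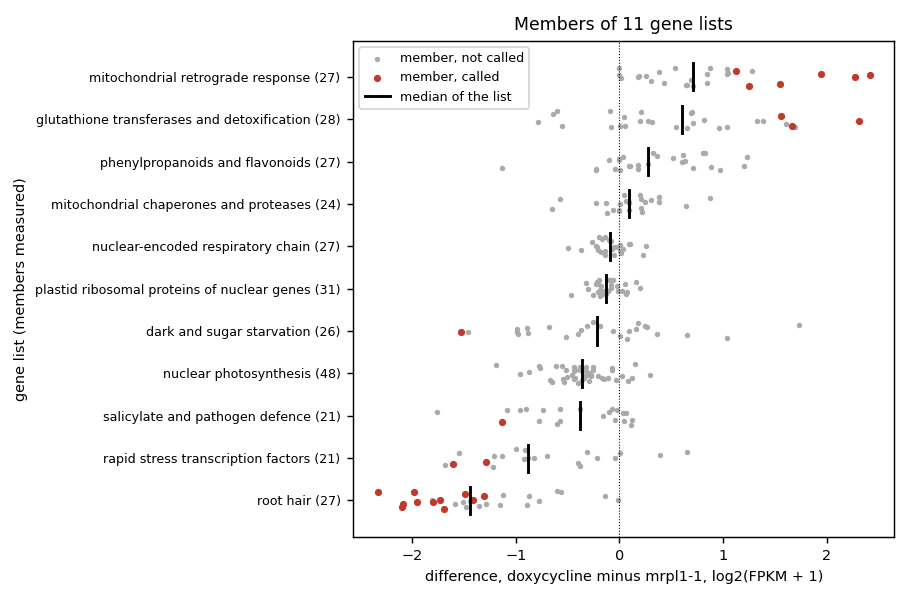
Differences between doxycycline-treated wild type and mrpl1-1, in log2(FPKM + 1), of the measured members of 11 gene lists (number in brackets). Red points were called, grey points were not, and the black bar is the list median, which runs from 0.71 for the retrograde genes to -1.44 for the root hair genes.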

How the data were processed

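The authors deposited FPKM values in 2 tables, one with doxycycline and one with mrpl1-1 libraries, and the same wild-type controls in both. Cufflinks 2.2.1, FastQC 0.10.1 and TAIR10 as the build are listed in the submitters' processing notes without saying what each did. Aligner and strand use are not given in the sources used here. Antisense, overlapping and near-identical genes are therefore uncertain. The control libraries differed between the tables by factors of 0.940572, 0.940583 and 0.941466, and dividing the mutant columns by the middle one, 0.940583, put both tables on one scale. Loci with a mean of at least 1 FPKM over the 6 libraries were fitted on log2(FPKM + 1) in limma 3.58.1 (R 4.3.3) with a variance trend, two-sided, with the Benjamini-Hochberg threshold at 0.05 over all loci. On this scale the change of low genes is understated. The fit was tested on simulated data.

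The groups, members and the 29 lists (27 of named loci, and the organelle loci by prefix) were chosen with earlier results of these data known. Named were MRPL1 and AOX1A, the 10 largest called differences in each direction among loci with a higher mean of 5 FPKM or more, no overlap and no 0, then for each list its 2 called members with the largest difference or, if none was called, its member of smallest p, and the called loci at 0 throughout a group. Other genes were named after their values were seen. Symbols, products, coordinates and sequence came from RefSeq TAIR10.1, which holds 32810 of the loci and not the other 747. Positions are those of that annotation, not of the deposited tables. Depth is an estimate from value steps, so no count test was run. The alternatives were 21 planned and 2 added after seeing the data.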

Additional observations from a re-analysis of the deposited data

How the results depend on the processing

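None of the 76 called loci changed sign under any of the 23 alternatives that tested it. Because the groups did not overlap at these loci, leaving out a library could not change a sign. The unchanged signs are therefore no support for the calls. Other genes named in the text were not followed in this way unless the naming rule chose them. Of the 76 called loci, 6 were called under every alternative that tested them and 48 under at least 15. The count was 76 with a pseudocount of 0.1 and 65 with 5, 69 with a minimum of 5 FPKM, 76 after median-ratio rescaling, 96 after quantile normalization, 104 with robust moderation, 79 with the controls in the fit and 78 without organelle loci. With no filter it was 18 (7 higher, 11 lower, over 23685 loci), without the variance trend 29 (12 and 17), with array weights 160 (51 and 109), and on loci above 0 in every library 129 (37 and 92). Removing the length trend gave 91 (37 and 54), so that 59.3% of calls were lower, and leaving the mutant columns as deposited gave 71 (31 and 40), or 56.3% lower, against 69.7%. It was 58.6% without the variance trend. Leaving out 1 library gave 13 to 237 calls, 5 to 45 higher and 8 to 192 lower. In the 2 alternatives added after seeing the data, array weights with the length trend removed gave 163 (55 and 108), and leaving out mrpl1-1 replicate 2 with the trend removed gave 24 (11 and 13). The cause was not tested. With the replicate number as a block 80 loci were called, 19 higher and 61 lower, and 56 of the 76 kept their call. Same-numbered libraries deviated with correlations of -0.000318, 0.0590 and 0.00132. So few libraries cannot decide whether the numbers pair the samples, and the main fit used no pairing. Of 1176 fits of the 52 named loci, 990 kept their side of the threshold, 181 lost the call and 5 gained one. The 990 include fits of loci such as AOX1A that were never called, so this count does not measure how often calls were kept. Low FPKM values rest on few reads at these depths.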
